A study of Homo sapiens with 16 samples.

Results

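Transcripts of integrins, their matrix ligands, the enzymes that cut the matrix and a few mesenchymal markers were followed across spheroids of 3 prostate cancer cell lines, with and without RNA interference against MED12. The genes were taken by name: integrin alpha and beta chains, laminin and collagen chains, matrix metalloproteinases (MMP), tissue inhibitors of metalloproteinases (TIMP), syndecans, and FN1, VIM, SPARC, CDH2, THBS1, CD44 and VCL. Of 115 genes in the count table whose names matched, 50 were among the 10566 genes that passed the expression filter, and these 50 are described here. Of the other 65, 59 never exceeded 10 counts in any library, and 18 of these 59 had 0 counts in every library. The highest count among the 65 was 28, for MMP13 in a single library. SPARC and ITGA5 were among the genes that did not pass.

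Cells attach to a matrix through integrins, paired alpha and beta chains that span the membrane and are tied to the actin skeleton inside by adaptors such as vinculin. Laminins and type IV collagen build the basement membrane beneath epithelial cells, while fibronectin and the fibrillar collagens belong to the matrix of the stroma. Epithelial cells that acquire vimentin, N-cadherin and fibronectin are said to become mesenchymal, a change that has been studied widely in prostate cancer cells.

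LNCaP is a hormone-dependent line that responds to the prostate cancer drug enzalutamide, 22Rv1 resists the drug, and PC3 is a hormone-independent line that is insensitive to it. Each library came from cells that received 25 pmol of small interfering RNA, either a mixture aimed at MED12 (siMED12), a subunit of the Mediator complex, or a non-targeting control mixture (siCtrl). Cells were kept for 3 days in 2D culture and for 4 days as spheroids in low-attachment plates, all in serum-containing medium. There were 3 siCtrl libraries for each line, 3 siMED12 libraries for LNCaP, and 2 siMED12 libraries (replicates 1 and 3) for each of 22Rv1 and PC3. The labels do not say whether replicates were separate cultures, although the methods of the study speak of biological replicates in general, so p-values measure only the spread between these libraries, which may in part be technical. Each line is 1 genetic background, and whether fewer cells or less RNA per cell lay behind a lower value cannot be told apart in bulk RNA.

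Libraries held 479118 to 993807 counts, and the 50 genes took 0.135% to 0.153% of them in LNCaP, 0.102% to 0.146% in 22Rv1 and 0.484% to 0.567% in PC3. Levels are given as CPM, the deposited counts scaled by TMM and set to a common library size, and differences as log2 ratios with the standard error (SE) and the adjusted p of the edgeR quasi-likelihood test over all 10566 genes. A difference was called at an adjusted p under 0.05. Reads came from the 3′ ends of transcripts, so levels do not scale with transcript length. MED12 itself had only 5 to 22 counts in a library. Its log2 ratio was -0.50 (SE 0.46, adjusted p = 0.878) in LNCaP, -1.28 (SE 0.46, adjusted p = 0.175) in 22Rv1 and -0.22 (SE 0.43, adjusted p = 0.987) in PC3, and only in 22Rv1 did the siMED12 libraries lie below all the siCtrl libraries. The study reports that its MED12 knockdown in spheroids was highly efficient, which these few counts cannot gauge closely. KLK3, encoding prostate-specific antigen, averaged 2473 CPM in LNCaP siCtrl, 28.9 in 22Rv1 siCtrl and 13.8 in PC3 siCtrl. It was 1 of 5 marker genes of the lines. All 5 were called lower in PC3 than in LNCaP, while against 22Rv1 4 were lower and 1 was not called. Between 22Rv1 and LNCaP 4 were lower in 22Rv1 and 1 higher. Among markers of stromal, immune and endothelial cells, DCN and PTPRC had 0 counts in all 16 libraries and LUM, PDGFRB, COL3A1, PDGFRA and PECAM1 reached at most 7 counts in any.

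Some libraries held more counts of genes otherwise restricted to another line, and where these counts came from was not tested. In siMED12 replicate 3 of 22Rv1, 57 genes restricted to PC3 (at least 50 CPM in PC3 siCtrl and at most 2 CPM in the siCtrl of both other lines, none of them among the 50) together stood at 5.78% of their summed PC3 level, against 0.745% to 1.26% in the other 22Rv1 libraries. In siMED12 replicate 3 of PC3, 5 genes restricted in the same way to LNCaP stood at 4.24% of their LNCaP level, against 0.799% to 1.43% in PC3 siCtrl and 2.14% in siMED12 replicate 1. For the genes with the clearest siMED12 values, the value without the library concerned, or after subtraction of the excess (carried-over counts), is given below.

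**Figure D1:**
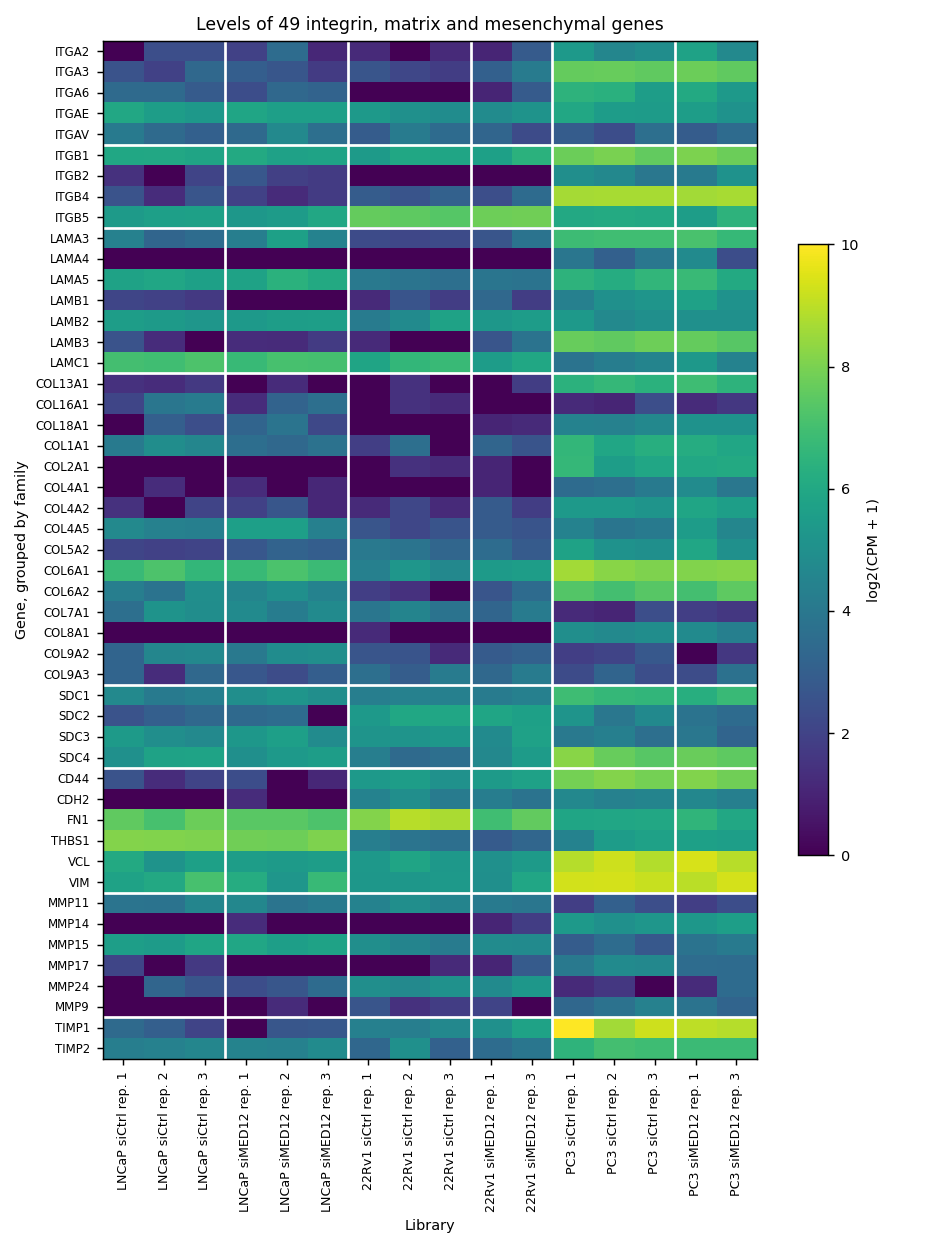
Levels of 49 of the 50 genes (rows, grouped by family) in the 16 libraries (columns, grouped by line and treatment), as log2(CPM + 1) on a colour scale from 0 to 10. The 5 PC3 columns differ from the LNCaP and 22Rv1 columns in most rows, and siCtrl and siMED12 columns of a line look much alike.

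The first comparison set the siCtrl libraries of the lines against each other. PC3 stood apart from both other lines: 43 of the 50 genes differed between PC3 and LNCaP (34 higher in PC3, 9 lower), and 44 between PC3 and 22Rv1 (35 higher, 9 lower). Over all genes tested, 54.7% were called between PC3 and LNCaP (29.2% higher, 25.5% lower) and 54.9% between PC3 and 22Rv1 (28.7% higher, 26.1% lower). Between 22Rv1 and LNCaP 25 of the 50 were called, 10 higher in 22Rv1 and 15 lower, beside 43.2% of all genes. The median log2 ratio of the 50 genes was 2.61 for PC3 over LNCaP, 3.09 for PC3 over 22Rv1 and -0.41 for 22Rv1 over LNCaP, where the medians of all genes were 0.045, 0.012 and 0.

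These counts are a description, because 18 of the 50 genes passed the filter through PC3 libraries only, 3 through LNCaP only and 2 through 22Rv1 only. A gene that passed through a single line was kept for its counts there, which favours a difference between lines without forcing one. For such genes the differences between lines are given below with no test. The 3 comparisons also share their siCtrl libraries. Genes of a family did not always go together, and the families are taken in turn.

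**Figure D2:**
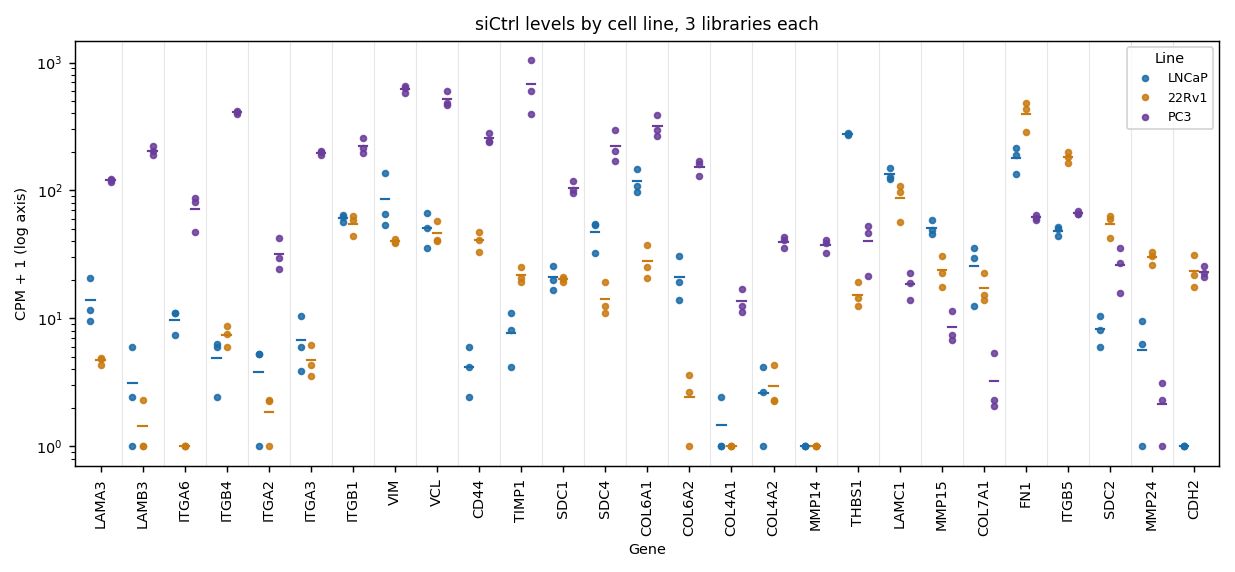
siCtrl levels of 27 of the genes as CPM + 1 on a log axis, by line. Points are the 3 siCtrl libraries of a line and short bars their means. From LAMA3 to MMP14 the PC3 points lie above those of both other lines. THBS1, LAMC1, MMP15 and COL7A1 have their highest mean in LNCaP, and FN1, ITGB5, SDC2 and MMP24 in 22Rv1.

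LAMA3 and LAMB3, chains of a laminin of epithelial basement membranes, were both high in PC3. LAMB3 had 204, 188 and 221 CPM in the PC3 siCtrl libraries, 4.97, 1.43 and 0 CPM in LNCaP, and 1.3, 0 and 0 CPM in 22Rv1. The groups did not overlap, and 22Rv1 held a single LAMB3 count over its 3 siCtrl libraries against 490 in PC3. LAMA3 was less restricted, with 116, 122 and 119.9 CPM in PC3, 19.9, 8.59 and 10.6 in LNCaP and 3.34 to 3.9 in 22Rv1. Its log2 ratios were 3.24 (SE 0.29, adjusted p = 5.12e-11) for PC3 over LNCaP and 4.94 (SE 0.38, adjusted p = 1.1e-12) for PC3 over 22Rv1. It was called lower in 22Rv1 than in LNCaP (-1.70, SE 0.61, adjusted p = 0.0243), but not without LNCaP replicate 1 (-1.32, adjusted p = 0.123) or without any 1 of the 22Rv1 libraries (adjusted p from 0.0584 to 0.0605).

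Because LAMA3 and LAMB3 were both high in PC3, the bases before their starts are shown. RefSeq (GRCh38.p14) gave 46 promoter windows, 250 bases before to 50 after a start, for 36 of the 50 genes. LAMB3 has 3 such starts and LAMA3 has 1, which lies within the gene as annotated and not at its 5′ end. The 250 bases before the start are printed 5′ to 3′ on the strand of the gene, with capitals for matches, on either strand, to the AP-1 motif TGANTCA, the cyclic AMP response element TGACGTCA and the GC box GGGCGG.
LAMA3, chr18:23872770-23873019, plus strand: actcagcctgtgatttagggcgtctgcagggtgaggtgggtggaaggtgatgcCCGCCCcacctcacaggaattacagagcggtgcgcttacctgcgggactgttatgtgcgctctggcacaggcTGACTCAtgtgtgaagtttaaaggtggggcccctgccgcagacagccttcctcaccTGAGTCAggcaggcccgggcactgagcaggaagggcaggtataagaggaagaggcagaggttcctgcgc
LAMB3, start 1, chr1:209652426-209652675, minus strand: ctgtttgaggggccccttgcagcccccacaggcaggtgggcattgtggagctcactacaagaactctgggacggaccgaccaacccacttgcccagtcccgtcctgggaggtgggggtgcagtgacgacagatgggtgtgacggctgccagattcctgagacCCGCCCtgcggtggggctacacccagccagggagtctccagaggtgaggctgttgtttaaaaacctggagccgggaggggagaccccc
LAMB3, start 3, chr1:209651375-209651624, minus strand: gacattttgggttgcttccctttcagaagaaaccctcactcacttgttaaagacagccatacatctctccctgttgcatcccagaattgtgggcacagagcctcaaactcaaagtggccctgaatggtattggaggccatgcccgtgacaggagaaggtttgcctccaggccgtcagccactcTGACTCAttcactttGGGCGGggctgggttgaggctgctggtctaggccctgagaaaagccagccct
The LAMA3 stretch holds 2 AP-1 matches and the stretch before start 3 of LAMB3 holds 1, while that before start 1 has none. Of the 46 windows, 3 hold the AP-1 motif (6.52%), the other being a CDH2 window, against 7.71% of all 35116 windows. The GC box is in 82.6% of the 46 windows and in 45% of all windows. All windows were not limited to genes that passed the expression filter, and the share over the tested genes was not taken. The motif matches are matches of letters and not shown to be bound.

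The laminin chain LAMC1, which is used in most other laminin trimers, had the opposite pattern. It had 128, 122 and 148 CPM in LNCaP, 56, 96.9 and 108 in 22Rv1 and 12.9, 17.9 and 21.7 in PC3. No library of one line overlapped another, and the order was LNCaP, 22Rv1, PC3 (22Rv1 over LNCaP -0.63, SE 0.20, adjusted p = 0.0108; PC3 over 22Rv1 -2.30, SE 0.28, adjusted p = 2.23e-08). The LAMC1 call between 22Rv1 and LNCaP was lost with DESeq2 (-0.60, adjusted p = 0.0535), without LNCaP replicate 3 (-0.52, adjusted p = 0.0723) and without 22Rv1 replicate 1 (-0.37, adjusted p = 0.134). LAMA5, the alpha chain of the laminins of mature basement membranes, averaged 83.9 ± 11.4 CPM (SD, n = 3) in PC3, 54.3 ± 5.29 in LNCaP and 13.5 ± 2.04 in 22Rv1. LAMB1 was at 19.4 to 36.1 CPM in PC3 and at 1.3 to 5.01 CPM in the other lines. Of the 8 laminin genes, 6 were higher in PC3 than in LNCaP and 1 lower, with the same counts against 22Rv1. Of these 8, 4 passed the filter through PC3 only, so the counts describe the family and do not test it. Over all genes, 29.2% were higher and 25.5% lower than in LNCaP, and 28.7% and 26.1% than in 22Rv1.

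Integrins that bind laminin were also high in PC3. ITGB4, whose product pairs with that of ITGA6 in the hemidesmosome, had 399, 410.0 and 415 CPM in PC3, 4.97, 1.43 and 5.3 in LNCaP and 6.51, 5.01 and 7.7 in 22Rv1. Its log2 ratio was 6.61 for PC3 over LNCaP and 5.93 for PC3 over 22Rv1, given with no test because it passed the filter through PC3 only. ITGA6 had 86.4, 81 and 46.2 CPM in PC3, 9.94, 10 and 6.36 in LNCaP, and 0 in every 22Rv1 siCtrl library. With the 3 counts that a library at 0 allows as the floor, it was at least 16.7-fold higher in PC3 than in 22Rv1 and at least 2.06-fold higher in LNCaP than in 22Rv1. The laminin-binding ITGA3 stood at 189 to 201 CPM in PC3 and at 2.57 to 9.54 in the other lines (log2 ratio 4.95 over LNCaP, likewise with no test). ITGA2, a collagen receptor chain, was at 23.1 to 41.3 CPM in PC3 and at most 4.3 elsewhere.

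The common partner ITGB1 was counted in all lines and differed less. It had 213, 255 and 195 CPM in PC3, 61.3, 63 and 56.2 in LNCaP and 42.9, 61.8 and 57.7 in 22Rv1. PC3 was above both other lines (1.89, SE 0.18, adjusted p = 1.69e-10 over LNCaP; 2.05, SE 0.19, adjusted p = 5.4e-11 over 22Rv1), and 22Rv1 and LNCaP overlapped. ITGB5, a chain of vitronectin receptors, was instead highest in 22Rv1, with 199, 181 and 162 CPM against 43.1, 48.7 and 50.9 in LNCaP and 64.5, 68.3 and 65 in PC3. Its log2 ratio for 22Rv1 over LNCaP was 1.91 (SE 0.19, adjusted p = 1.09e-09), and PC3 and LNCaP did not overlap but missed the threshold (0.46, SE 0.22, adjusted p = 0.0721). Its partner ITGAV, which passed the filter through LNCaP only, was at 4.21 to 16.7 CPM and overlapped in all lines. ITGB2, known from leukocytes, had 14.4 to 29.7 CPM in PC3 and 0 counts in 22Rv1.

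Among the collagens, 10 of 15 were higher in PC3 than in LNCaP and 3 lower, and 11 were higher than in 22Rv1 and 1 lower. Of these 15, 6 passed the filter through PC3 only, so the counts describe the family and do not test it. Over all genes, 29.2% were higher and 25.5% lower in PC3 than in LNCaP, and 28.7% and 26.1% against 22Rv1. COL6A1 and COL6A2, neighbours on chromosome 21 that encode chains of the type VI microfibril, had 389.6, 299 and 267 CPM and 159, 128 and 169 CPM in PC3. In LNCaP they had 108, 146 and 96.5 CPM and 18.2, 12.9 and 29.7 CPM, and in 22Rv1 19.5, 36.8 and 24.4 CPM and 2.6, 1.67 and 0 CPM. Both genes thus had the order PC3, LNCaP, 22Rv1 without overlap of libraries. COL13A1, a membrane-bound collagen, was at 83.8 to 101 CPM in PC3 and at most 2.12 elsewhere. COL2A1, the main collagen of cartilage, had 99.3, 46.3 and 59.2 CPM in PC3 and at most 1.67 elsewhere, being at 0 in every LNCaP library. COL8A1 likewise had 25.2 to 29.7 CPM in PC3 and 1 count in all siCtrl libraries of the other lines. COL1A1, a chain of the main fibrillar collagen, averaged 77.7 ± 19.2 CPM in PC3, 22.8 ± 6.05 in LNCaP and 4.77 ± 6.14 in 22Rv1 (SD, n = 3), and COL18A1 was at 20 to 24.6 CPM in PC3, 0 to 7.16 in LNCaP and 0 in 22Rv1. COL7A1, the anchoring fibril collagen, went the other way, at 1.05 to 4.33 CPM in PC3 against 11.6 to 34.4 in LNCaP and 12.8 to 21.7 in 22Rv1.

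The chains of type IV collagen are encoded by COL4A1 and COL4A2, which lie head to head on chromosome 13. COL4A2 had 40, 42.1 and 34.7 CPM in PC3, 1.66, 0 and 3.18 in LNCaP and 1.3, 3.34 and 1.28 in 22Rv1 (log2 ratio 4.34 over LNCaP, with no test). COL4A1 had 10.3, 11.6 and 15.9 CPM in PC3, which was 30 counts, against 1 count in LNCaP (ratio 27.9, 95% interval for counting error 4.63 to 1136) and 0 counts in 22Rv1 (at least 2.96-fold higher in PC3). Because COL4A1 passed the filter through PC3 only, this interval is no test of the difference. The stretch between the RefSeq starts of the pair is only 126 bases long, with 80.2% G or C, and is shown because both genes were high in the same line. It is printed in the direction of COL4A2 with its GC box in capitals, and it holds neither the AP-1 nor the cyclic AMP motif.
COL4A1 to COL4A2, chr13:110307158-110307283, plus strand: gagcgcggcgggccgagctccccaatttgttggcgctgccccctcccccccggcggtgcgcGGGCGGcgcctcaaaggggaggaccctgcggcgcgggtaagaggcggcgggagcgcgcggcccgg
COL4A5, which is X-linked and makes another type IV chain, did not follow the pair. It had 24.9, 20.1 and 19.1 CPM in LNCaP and 20.6, 13.7 and 15.9 in PC3, which overlapped, and 3.34 to 5.21 in 22Rv1 (-2.13, SE 0.51, adjusted p = 0.00091 against LNCaP).

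Of the mesenchymal and adhesion markers, VIM, encoding the intermediate filament vimentin, had 633, 652 and 574 CPM in PC3, 53, 64.4 and 136 in LNCaP and 37.7, 38.4 and 41.1 in 22Rv1. Its log2 ratio for PC3 over LNCaP was 2.81 (SE 0.23, adjusted p = 4.44e-12). VCL, encoding vinculin, stood at 464 to 603 CPM in PC3 and at 34.4 to 66.3 in the other lines, which overlapped (3.38, SE 0.19, adjusted p = 3.15e-16 for PC3 over LNCaP). CD44, the hyaluronan receptor, separated all 3 lines, with 239.9, 283 and 243 CPM in PC3, 40.3, 46.8 and 32.1 in 22Rv1 and 4.97, 1.43 and 3.18 in LNCaP. Its log2 ratios were 2.70 (SE 0.19, adjusted p = 6.43e-14) for PC3 over 22Rv1 and 3.59 (SE 0.43, adjusted p = 2.71e-08) for 22Rv1 over LNCaP.

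CDH2, which encodes N-cadherin, was counted in 22Rv1 and PC3 only. It had 20.8, 30.1 and 16.7 CPM in 22Rv1 and 24.5, 20 and 21.7 in PC3, which overlapped, and 0 in all LNCaP siCtrl libraries, so it was at least 5.43-fold higher in 22Rv1 and at least 5.32-fold higher in PC3 than in LNCaP. Fibronectin and thrombospondin had other orders. THBS1, encoding the matricellular thrombospondin, had 282, 275 and 268 CPM in LNCaP, 20.6, 45.2 and 52 in PC3 and 18.2, 13.4 and 11.5 in 22Rv1 (-4.23, SE 0.23, adjusted p = 1.05e-15 for 22Rv1 over LNCaP). FN1, encoding fibronectin, had 284, 481 and 429 CPM in 22Rv1, 187, 135 and 214 in LNCaP and 58.1, 59.9 and 63.6 in PC3, with no overlap (22Rv1 over LNCaP 1.14, SE 0.18, adjusted p = 4.76e-06; PC3 over LNCaP -1.57, SE 0.22, adjusted p = 3.24e-07). PC3 was thus highest of the lines for vimentin and lowest for fibronectin.

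The syndecans, cell-surface proteoglycans, split by member. SDC4 had 298, 201 and 168 CPM in PC3, 31.5, 53 and 54.1 in LNCaP and 18.2, 10 and 11.5 in 22Rv1. SDC1 was at 95.4 to 117 CPM in PC3 and at 15.8 to 24.9 CPM in the other lines, which overlapped. SDC2 was highest in 22Rv1 with 41.6, 61.8 and 59 CPM, next in PC3 with 34.8, 14.7 and 26, and lowest in LNCaP with 4.97, 7.16 and 9.54. SDC3 averaged 32.9 ± 9.14 CPM in LNCaP and 36.2 ± 1.95 in 22Rv1, which overlapped, and 15.3 ± 3.68 in PC3 (SD, n = 3).

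Matrix-cutting enzymes differed in kind between the lines. MMP14, a membrane-anchored collagenase, had 40, 31.5 and 37.6 CPM in PC3 and 0 counts in the siCtrl libraries of both other lines, making it at least 8.77-fold higher than in LNCaP and at least 8.54-fold higher than in 22Rv1. MMP17, anchored to the membrane by a lipid, was at 15.5 to 26.3 CPM in PC3 and at most 3.31 elsewhere. The membrane-type MMP15 had 48, 44.4 and 58.3 CPM in LNCaP, 29.9, 21.7 and 16.7 in 22Rv1 and 6.45, 10.5 and 5.78 in PC3, and MMP24 had 29.9, 25.1 and 32.1 CPM in 22Rv1, up to 8.59 in LNCaP and up to 2.1 in PC3. The secreted MMP11 was at 12.9 to 30.1 CPM in LNCaP and 22Rv1 and at 2.58 to 7.36 in PC3. Of these 4 membrane-type enzymes, MMP14 and MMP17 thus had their highest mean in PC3, MMP15 in LNCaP and MMP24 in 22Rv1. The inhibitor TIMP1 had 1045, 394 and 599.6 CPM in PC3, 19.5, 18.4 and 24.4 in 22Rv1 and 9.94, 7.16 and 3.18 in LNCaP (6.72, SE 0.37, adjusted p = 3.02e-16 for PC3 over LNCaP). Replicate 1 of PC3 siCtrl was the highest of its group for TIMP1 and also for SDC4 and COL6A1. TIMP2 was at 90.3 to 128 CPM in PC3 and at 7.7 to 31.8 in the other lines.

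Over all 50 genes, the libraries of the lines did not overlap for 43 (PC3 and LNCaP), 44 (PC3 and 22Rv1) and 24 (22Rv1 and LNCaP), where 60.2%, 58.9% and 51.2% of all genes tested did not. The 9 genes that the text does not name had siCtrl means of 0 to 51.5 CPM in the 3 lines.

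The second comparison asked what siMED12 did to these genes in each line. Against the differences between lines the siMED12 differences were few. In 22Rv1 FN1 fell by 60.3% and LAMB3 was called higher, and no other gene of the 50 was called in any line. This made 2 of 50 in 22Rv1 beside 1.84% of all genes (0.994% higher, 0.842% lower), 0 of 50 in LNCaP beside 0.416%, and 0 of 50 in PC3 beside 0%. At an unadjusted p under 0.05 there were 10 of 50 in 22Rv1, 6 in LNCaP and 4 in PC3, where 11.7%, 7.34% and 4.99% of all genes passed. With carried-over counts subtracted, they were 7 in 22Rv1, 6 in LNCaP and 2 in PC3. DESeq2 called 1 gene in 22Rv1 and none in LNCaP or PC3, and limma on the log2 CPM called 4, 0 and 0.

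**Figure D3:**
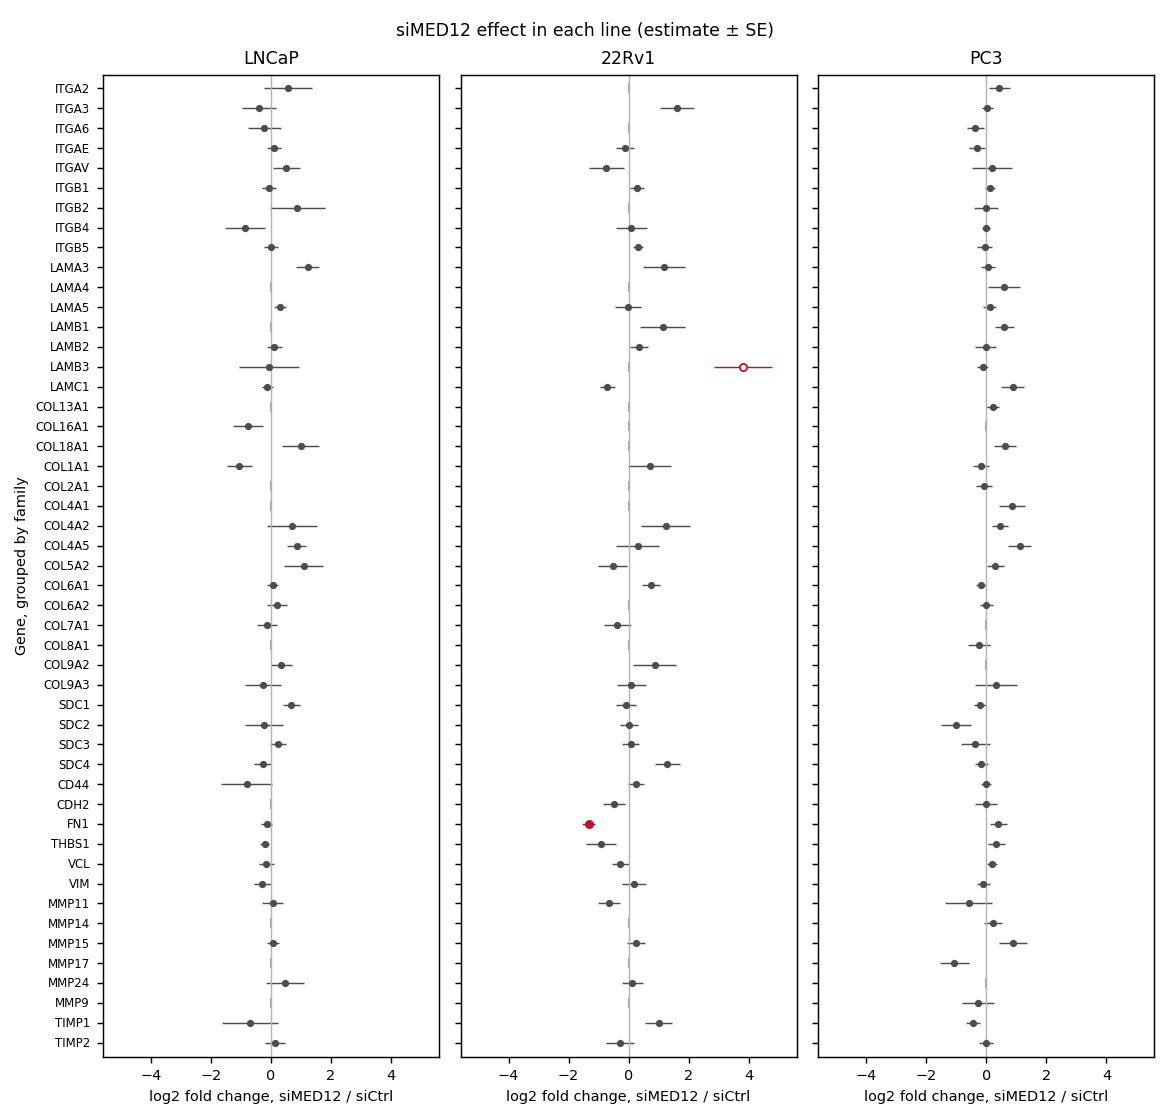
log2 fold change of siMED12 over siCtrl for 49 of the 50 genes (rows, grouped by family) in each line, with bars of 1 SE from the edgeR fit. Red marks an adjusted p under 0.05: FN1 and LAMB3 in 22Rv1. Grey ticks at 0 are genes with at most 3 counts in all libraries of a group, for which no estimate is drawn, and the open LAMB3 point is such a gene with its fitted value.

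FN1 was the clearest of these. In 22Rv1 it had 284, 481 and 429 CPM under siCtrl and 122 and 195 CPM under siMED12. Both siMED12 libraries lay below every siCtrl library, and the log2 ratio was -1.33 (SE 0.20, adjusted p = 0.00018). Without siMED12 replicate 3 it was -1.70 (adjusted p = 0.000139), without replicate 1 it was -1.04 (adjusted p = 0.0281), and with carried-over counts subtracted -1.30 (adjusted p = 0.000213). Where a single siMED12 library was left, it was assumed to vary like the libraries of the other groups. The FN1 values under siMED12 in 22Rv1 overlapped those of LNCaP siCtrl (187, 135 and 214 CPM). In LNCaP itself FN1 had 171, 175 and 148 CPM under siMED12 (-0.13, SE 0.19, adjusted p = 0.941), and in PC3 92.3 and 62.2 CPM against 58.1, 59.9 and 63.6 (0.40, SE 0.28, adjusted p = 0.975).

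The FN1 difference between siMED12 effects was tested directly. It was 1.73 for PC3 minus 22Rv1 (SE 0.35, adjusted p = 0.0339), and FN1 was the only one of the 50 genes called in that contrast, beside 0.0946% of all genes (0.0189% higher). Leaving out each of the 10 libraries of these lines in turn took FN1 past 0.05 for 7 of them, with the highest adjusted p, 0.528, without PC3 siMED12 replicate 1. DESeq2 (adjusted p = 0.00636) and limma (adjusted p = 0.0305) called it. The FN1 difference 22Rv1 minus LNCaP was -1.20 (SE 0.28, adjusted p = 0.0668) and missed the threshold. It passed when all counted genes were tested (-1.15, adjusted p = 0.00113), without 22Rv1 siCtrl replicate 1 (-1.40, adjusted p = 0.0116) and without 22Rv1 siMED12 replicate 3 (-1.58, adjusted p = 0.0381). In the fit over all libraries none of the 50 genes was called in that contrast (0.189% of all genes), in PC3 minus LNCaP (0.0284%) or in the mean of the 3 effects (0.265%). At an unadjusted p under 0.05 these contrasts had 9, 4 and 8 of the 50 genes, beside 8.28%, 5.02% and 8.52% of all genes. PC3 minus 22Rv1, which includes 22Rv1 siMED12 replicate 3, had 11, beside 9.16%. DESeq2 and limma also called none of the 50 in 22Rv1 minus LNCaP, PC3 minus LNCaP or the mean.

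The FN1 promoter is shown as that of the gene with the clearest siMED12 difference. It lies on chromosome 2, and the 250 bases before the RefSeq start are printed on the minus strand with capitals for the same 3 motifs.
FN1, chr2:215436069-215436318, minus strand: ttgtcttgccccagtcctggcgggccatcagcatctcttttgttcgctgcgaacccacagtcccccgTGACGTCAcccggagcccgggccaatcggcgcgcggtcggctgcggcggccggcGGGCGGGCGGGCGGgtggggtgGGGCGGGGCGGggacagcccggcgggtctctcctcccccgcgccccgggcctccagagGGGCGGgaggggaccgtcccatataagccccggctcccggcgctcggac
The stretch holds 1 cyclic AMP response element, which starts 183 bases before the start, and 6 GC boxes, of which some share bases. FN1 is the only one of the 36 genes with a window that holds this element (2.17% of the 46 windows, 1.85% of all windows). The data hold no measure of binding at it.

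LAMB3 rested on few counts and on 1 library. In 22Rv1 it had 1, 0 and 0 counts under siCtrl and 5 and 10 counts under siMED12, or 1.3, 0 and 0 against 5.3 and 12.8 CPM (adjusted p = 0.0235). The ratio of counts was 18.7, with a 95% interval for counting error of 2.87 to 787. The higher value was in siMED12 replicate 3, where PC3-restricted genes were in excess, and the PC3 level of LAMB3 (204 CPM) times that excess of 4.84% comes to 9.90 CPM. The adjusted p was 0.278 without this library and 0.341 after subtraction, 0.0905 without siCtrl replicate 2, 0.113 without siCtrl replicate 3 and 0.0786 by DESeq2. Replicate 1, in which PC3-restricted genes stood at 1.26%, held 5 LAMB3 counts. Where the LAMB3 counts of either library came from was not tested.

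Some, but not all, of the other genes that were high in PC3 were also raised in this library. Of the 50 genes, 19 had at least 50 CPM in PC3 siCtrl and at least 5 times their 22Rv1 siCtrl mean. Their summed level was 228 to 303 CPM in the 22Rv1 siCtrl libraries, 284 in siMED12 replicate 1 and 426 in siMED12 replicate 3, beside 4057 to 4875 in PC3 siCtrl. Of the 19, 13 were above every siCtrl library in replicate 3, 7 after subtraction, and 8 in replicate 1. Of all 359 tested genes that were high in PC3 by the same limits, 67.1% were above every siCtrl library in replicate 3 and 29% in replicate 1, beside 26.4% and 27% of all genes tested. VCL stood 2.89 CPM below its siCtrl mean in replicate 3, and ITGB4 3.85 CPM above it, where the excess share of their PC3 levels would be 25 and 19.8 CPM. How much of the excess is in the value of any 1 gene was not tested. Of the other 31 genes, 9 were above every siCtrl library in replicate 3 and 8 in replicate 1. Over all 50 genes the median log2 ratio in 22Rv1 was 0.21 with 31 above 0, and it was 0.014 with 25 above 0 without replicate 3 and 0.088 with 27 above 0 after subtraction.

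**Figure D4:**
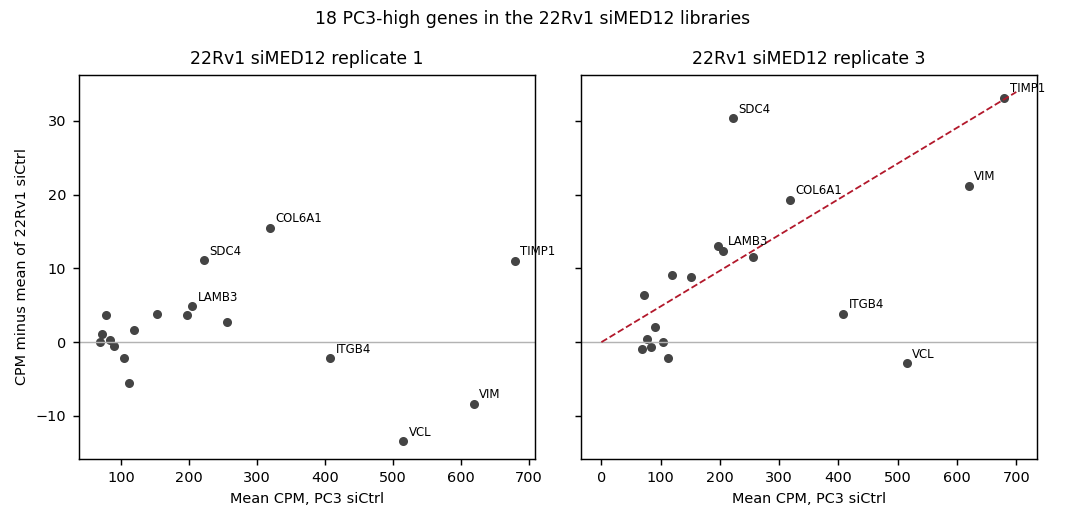
Of the 19 genes that were high in PC3, 18 are shown in the 22Rv1 siMED12 libraries. The x axis is the mean CPM in PC3 siCtrl and the y axis the CPM in the library minus the mean of 22Rv1 siCtrl. The dashed line is 4.84% of the PC3 level, the excess of PC3-restricted genes in replicate 3. TIMP1, COL6A1 and LAMB3 lie near the line in replicate 3, SDC4 above it, and ITGB4 and VCL below it.

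SDC4 was the gene next nearest to the threshold in 22Rv1. It had 18.2, 10 and 11.5 CPM under siCtrl and 24.4 and 43.6 under siMED12, which did not overlap (1.29, SE 0.41, adjusted p = 0.109). It passed in the limma test (adjusted p = 0.0347) and when all counted genes were tested (adjusted p = 0.0274), and its log2 ratio was 1.08 (adjusted p = 0.227) after subtraction and 0.85 (adjusted p = 0.58) without siMED12 replicate 3. The integrin chain ITGA3 had 5.21, 3.34 and 2.57 CPM under siCtrl and 7.42 and 16.7 under siMED12 (1.60, SE 0.56, adjusted p = 0.168), and 0.91 (adjusted p = 0.609) after subtraction. LAMC1 had 56, 96.9 and 108 CPM under siCtrl and 45.6 and 61.6 under siMED12, which overlapped (-0.70, SE 0.25, adjusted p = 0.176), and it passed without siCtrl replicate 1 (-0.95, adjusted p = 0.0328). THBS1 had 18.2, 13.4 and 11.5 CPM against 6.36 and 8.98, below but not called (-0.92, SE 0.49, adjusted p = 0.477).

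Genes whose groups did not overlap in 22Rv1 numbered 15 of 50, 12 higher and 3 lower under siMED12, beside 26.6% of all genes. The 3 lower were FN1, THBS1 and MMP11. After subtraction they numbered 16, with 9 higher and 7 lower, beside 26.4% of all genes. The 4 added to the lower genes were SDC1, VIM, VCL and ITGB4, all high in PC3, and the subtraction itself lowered them: in replicate 3 VCL went from 33 to 14 counts and ITGB4 from 8 to 0. VIM, VCL, CD44, CDH2, ITGB1 and SDC2 all overlapped in 22Rv1 before subtraction, with log2 ratios from -0.49 for CDH2 to 0.29 for ITGB1. ITGB5, highest in this line, had 199, 181 and 162 CPM against 218 and 227 (0.30, SE 0.17, adjusted p = 0.511).

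**Figure D5:**
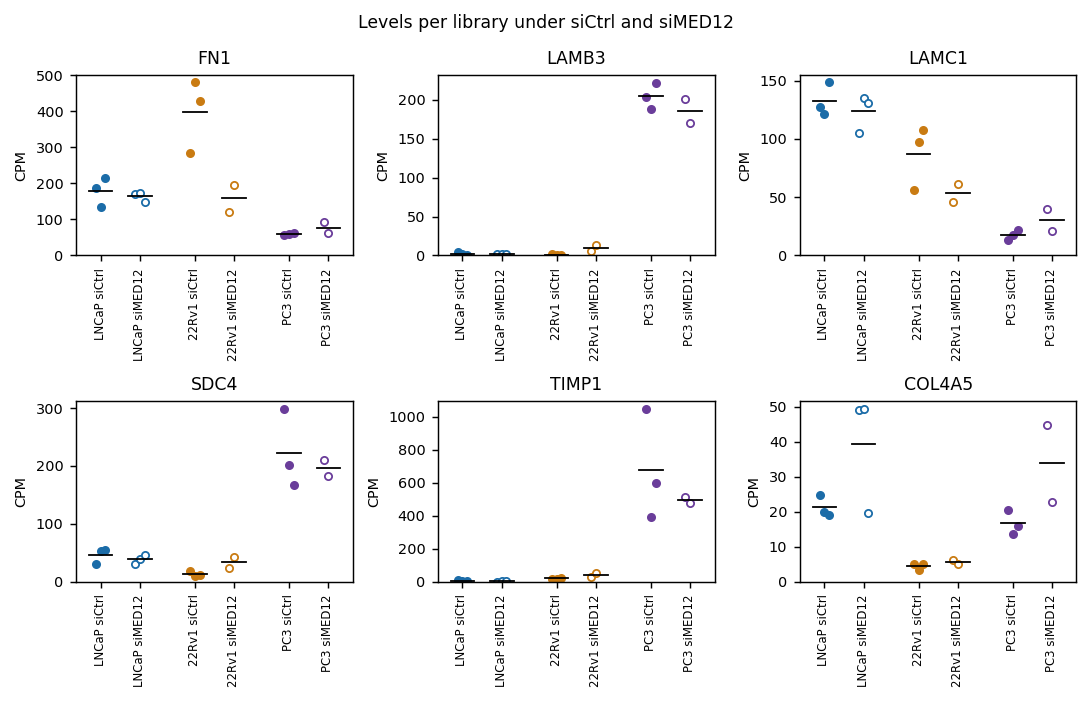
CPM per library for FN1, LAMB3, LAMC1, SDC4, TIMP1 and COL4A5. Filled points are siCtrl, open points siMED12, colours the lines and bars the means, and each axis starts at 0. FN1 in 22Rv1 drops from 284 to 481 CPM to 122 and 195 CPM, whereas for the other genes the siMED12 points of a line differ from siCtrl by little beside the differences between lines or beside their own spread.

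In LNCaP the smallest p-values among the 50 belonged to LAMA3, COL4A5, LAMB1, COL1A1 and SDC1. LAMA3 had 19.9, 8.59 and 10.6 CPM under siCtrl and 18.2, 50.7 and 20.7 under siMED12 (1.23, SE 0.38, adjusted p = 0.238), with replicate 2 well above the others. COL4A5 had 24.9, 20.1 and 19.1 CPM against 49, 49.4 and 19.5 (0.87, SE 0.31, adjusted p = 0.42), with replicate 3 at the siCtrl level, and was called without that library (1.22, adjusted p = 0.0434). COL1A1 had 16.6, 28.6 and 23.3 CPM against 11.2, 9.34 and 12.6, and SDC1 24.9, 15.8 and 19.1 against 29.4, 36 and 29.9. Neither pair of groups overlapped and neither was called (-1.04, SE 0.41, adjusted p = 0.528; 0.69, SE 0.28, adjusted p = 0.539). LAMB1 had 6 counts over the siCtrl libraries and 0 under siMED12, both near the floor. The groups did not overlap for 6 of the 50 genes in LNCaP, 2 higher and 4 lower, beside 12.6% of all genes. THBS1, higher here than in the other lines, had 282, 275 and 268 CPM against 229, 222 and 268, with the nearest libraries almost equal (-0.19, SE 0.15, adjusted p = 0.842).

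In PC3 the siMED12 levels of ITGB4, ITGA3, LAMA3, VIM, CD44 and CDH2 overlapped those of siCtrl. ITGB4 had 393 and 409 CPM under siMED12 against 399 to 415 (-0.03, SE 0.14), ITGA3 214 and 187 against 189 to 201 (0.03, SE 0.17), and LAMA3 138 and 104 against 116 to 122 (0.05, SE 0.22). VIM had 502 and 655 CPM against 574 to 652 (-0.11, SE 0.22), CD44 272 and 228 against 239.9 to 283 (-0.02, SE 0.17) and CDH2 23.7 and 18.7 against 20 to 24.5 (-0.02, SE 0.38). Adjusted p was 0.988 or 1 for these 6 genes. The smallest p-values belonged to COL4A5, LAMC1, MMP17, SDC2 and TIMP1. COL4A5 had 44.8 and 22.8 CPM against 20.6, 13.7 and 15.9 (1.11, SE 0.38, adjusted p = 0.873), and MMP17 10.6 and 10.4 against 15.5, 26.3 and 24.6 (-1.08, SE 0.49, adjusted p = 0.974). SDC2 had 13.2 and 10.4 CPM against 34.8, 14.7 and 26 (-1.01, SE 0.50, adjusted p = 0.974), and LAMC1 39.6 and 20.7 against 12.9, 17.9 and 21.7, which overlapped (0.87, SE 0.39, adjusted p = 0.974). TIMP1 had 512 and 477 CPM, within the siCtrl range of 394 to 1045 (-0.45, SE 0.23, adjusted p = 0.974), and its log2 ratio was 0.0081 without siCtrl replicate 1. The groups did not overlap for 7 genes, 4 higher and 3 lower, beside 20.7% of all genes.

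Single PC3 libraries moved these values. Without siMED12 replicate 3, in which LNCaP-restricted genes were in excess, the log2 ratios were 1.43 (adjusted p = 0.424) for COL4A5, 1.18 (adjusted p = 0.625) for LAMC1, -1.07 (adjusted p = 0.821) for MMP17, -0.89 (adjusted p = 0.857) for SDC2 and -0.40 (adjusted p = 0.866) for TIMP1, and 0 of the 50 genes were called. Without siMED12 replicate 1 they were 0.46 for COL4A5 and 0.25 for LAMC1.

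COL4A5 was thus among the 5 smallest p-values in both LNCaP and PC3, higher under siMED12 in 2 of 3 LNCaP libraries and in 2 of 2 PC3 libraries than in every siCtrl library of the line. Averaged over the 3 lines, its effect came to 0.76 (SE 0.30, adjusted p = 0.429) and was not called. LAMC1 pointed down in 22Rv1 and up in PC3, and the difference PC3 minus 22Rv1 was 1.57 (SE 0.46, adjusted p = 0.217).

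Other genes of the pathway were taken from lists chosen with earlier results of these data known. Their siMED12 counts stand beside 1.84% of all genes called in 22Rv1, 0.416% in LNCaP and 0% in PC3. With lists this short, 1 called gene says nothing about its list. Of 21 adaptors and partners of integrins, such as talin and integrin-linked kinase, 1 was called under siMED12 in 22Rv1 and 0 in LNCaP and PC3. The called gene was CAV1, which encodes caveolin and had 16.9, 13.4 and 14.1 CPM under siCtrl and 35 and 60.3 under siMED12 (1.64, SE 0.31, adjusted p = 0.00206). CAV1 stood at 484 to 572 CPM in PC3 siCtrl, and its log2 ratio was 1.21 (adjusted p = 0.0304) after subtraction and 1.22 (adjusted p = 0.116) without siMED12 replicate 3. Of 14 genes for collagen modification and matrix proteolysis, 1 was called in LNCaP, 1 in 22Rv1 and 0 in PC3. PLOD1, a lysyl hydroxylase that modifies collagen, had 194, 209 and 206 CPM in LNCaP siCtrl and 129, 66.7 and 98.9 under siMED12 (-1.05, SE 0.17, adjusted p = 0.000866), and did not overlap. PLAU, which encodes urokinase, was called in 22Rv1 (2.00, SE 0.50, adjusted p = 0.029) with 19.5, 18.4 and 20.5 CPM against 15.9 in replicate 1 and 149 in replicate 3, and without replicate 3 its log2 ratio was -0.30 (adjusted p = 0.906). PLAU was called in the other direction after subtraction (-3.34, adjusted p = 0.0092), but the subtraction itself took all of its counts in replicate 3. PC3 siCtrl held 2936, 4868 and 3560 CPM of PLAU, and 4.84% of their mean is more than the 149 CPM in that library. PLAU was not called by DESeq2 (adjusted p = 0.189) or limma (adjusted p = 0.253). None of 9 other matrix genes was called in any line. Of 5 mesenchymal transcription factors SNAI2 and TWIST1 passed the filter, and neither was called. SNAI2 averaged 34.3 CPM in PC3 siCtrl, 2.24 in LNCaP and 0 in 22Rv1, and TWIST1 40.7, 31.8 and 5.68 CPM.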

How the data were processed

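Spheroids of LNCaP, 22Rv1 and PC3 cells were profiled by bulk RNA barcoding and sequencing of 3′ ends (BRB-seq) in 16 libraries, grouped by the deposited labels. The authors aligned reads with STARsolo to GRCh38.p13 with the Gencode 43 annotation and deposited counts per gene and a table of log2 CPM. Whether molecular identifiers were collapsed is not given in the sources used here. The deposited log2 CPM could be recomputed from the counts with a prior count of 2.

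Genes were kept by filterByExpr over the 6 groups (minimum count 10, minimum total 15), scaled by TMM and fitted once over the 16 libraries in edgeR 4.0.16 (R 4.3.3) by the quasi-likelihood method. Contrasts were tested two-sided with Benjamini-Hochberg adjustment over the 10566 genes kept, at a threshold of 0.05. SE is the log2 ratio divided by the square root of F. A library at 0 was given a floor of 3 counts for folds, and ratios of counts have exact 95% intervals; both cover counting error only. The excess of genes restricted to another line was taken as carried-over counts, which is an assumption, and subtracted in 1 alternative. The members and lists were chosen with earlier results of these data known. Members were named with values where called between lines with at least 20 CPM and no overlap of libraries (up to 10 of each sign by log2 ratio), where called for siMED12 or among the 5 smallest p-values of a line, or for their role. At 479118 to 993807 counts per library, a gene with few counts is measured with wide counting error.

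Alternatives were RLE scaling, DESeq2 1.42.0, limma 3.58.1 on the deposited log2 CPM, all genes with at least 1 count, a replicate block, subtraction, each library left out and, chosen after seeing the data, the older edgeR dispersion. The scripts were tested on simulated data. Promoter windows came from RefSeq on GRCh38.p14. One member and one marker gene are not reported here by name, although counts over all the members include them.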

Additional observations from a re-analysis of the deposited data

Results flagged for a closer look

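FN1 in the comparison PC3 minus 22Rv1 was marked because the siMED12 effects of the 2 lines differed by a test of the difference itself. The difference was 1.73 on the log2 scale (SE 0.35, edgeR quasi-likelihood adjusted p = 0.0339). FN1 was below every siCtrl library in 2 of 2 siMED12 libraries of 22Rv1, and in PC3 1 of 2 siMED12 libraries was above every siCtrl library. The difference missed the threshold without 22Rv1 siCtrl replicate 2 (1.58, adjusted p = 0.0903) or 3 (1.68, adjusted p = 0.0539), 22Rv1 siMED12 replicate 1 (1.42, adjusted p = 0.0949), PC3 siCtrl replicate 2 (1.73, adjusted p = 0.0622) or 3 (1.77, adjusted p = 0.0584), and PC3 siMED12 replicate 1 (1.38, adjusted p = 0.528) or 3 (1.94, adjusted p = 0.0526). It was called in each fit that kept all libraries, with adjusted p from 2.24e-05 to 0.0421.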

How the results depend on the processing

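Of 2247 alternative values of the named genes, 2201 kept their side of the threshold, 34 lost a call and 12 gained one. Of the 2247, no value called in either fit changed sign, but 67 values called in neither did, 52 of them with a library left out and 15 otherwise. Among these were ITGB4 in 22Rv1, from 0.097 to -1.77 after subtraction, and VIM in 22Rv1, from 0.18 to -0.36. In 22Rv1 the siMED12 count of 2 was 1 with DESeq2 and after subtraction, where FN1 stayed and LAMB3 did not, 4 with limma, and 1 to 3 with 1 library left out. In LNCaP the count of 0 ranged from 0 to 1, the 1 being COL4A5 without siMED12 replicate 3. For 22Rv1 minus LNCaP it was 1 with all counted genes and ranged from 0 to 1 with a library left out, and for PC3 minus 22Rv1 it was 3 with all counted genes and ranged from 0 to 1. The cause was not tested.

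Replicate numbers were taken as a block in 1 alternative. Deviations of same-numbered libraries correlated at 0.0874 to 0.127 in LNCaP, 0.161 and 0.214 in 22Rv1 and 0.0516 and 0.073 in PC3, not all over 0.1, so the numbers were not taken to pair the libraries, although every siMED12 library, in all lines, correlated best with the siCtrl library of its own number. In 22Rv1 and PC3 the 2 siMED12 libraries deviate from their mean by equal and opposite amounts, so their correlations are not separate observations. With the block the counts were 0 in LNCaP (1.11% of all genes), 2 in 22Rv1 (2.95%), 1 in PC3 (0.189%), 0 for the mean (0.937%), 1 for 22Rv1 minus LNCaP (0.672%), 0 for PC3 minus LNCaP (0.123%) and 2 for PC3 minus 22Rv1 (0.691%). The gene called in PC3 was TIMP1 (-0.71, adjusted p = 0.0213), that for 22Rv1 minus LNCaP FN1 (-1.05, adjusted p = 0.0102), and those for PC3 minus 22Rv1 FN1 and TIMP1 (-1.66, adjusted p = 0.0202 for TIMP1). In 22Rv1 TIMP1 had 19.5, 18.4 and 24.4 CPM under siCtrl and 31.8 and 53.9 under siMED12. Its value in siMED12 replicate 3 was 23.0 CPM after subtraction. In PC3 the unblocked TIMP1 log2 ratio was 0.0081 without siCtrl replicate 1. Depth limits genes such as LAMB3 and COL4A1, whose values rest on a few counts in some groups. It also limits MED12, whose effect ranged from -0.74 to -0.38 in LNCaP, -1.41 to -1.14 in 22Rv1 and -0.63 to 0.25 in PC3 with 1 library left out.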
